A study of Mus musculus with 8 samples.

Results

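The data describe 10 genes that mark contractile and supporting cells around blood vessels and in scar tissue, chosen by name from the 22180 genes with a named probe set on the array. They were Acta2, Tagln, Myh11, Cnn1, Des, Vim, Pdgfra, Pdgfrb, Cspg4 and Thy1. All 10 were measured, and 8 lay above the signal filter used for testing, a log2 value of 6.64. Cnn1 and Thy1 lay below it, so their values are given without a test.

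Whole kidneys of 8 mice aged 2 months were measured, with 1 array per mouse and values on a log2 scale. The groups were 3 mice lacking both Col4a3 and osteopontin (labelled Col4a3-/-OPN-/-, called double mutants), 3 mice lacking Col4a3 (Col4a3-/-, single mutants) and 2 wild type mice. Both mutants thus carry the Col4a3 deletion, and no group lacks osteopontin alone. The series title names the effect of osteopontin deficiency on Alport kidney pathology as its subject, Alport syndrome being a hereditary disease of the collagen IV network in the glomerular filter. The strain and the sex of the mice are not in the labels used here.

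Pericytes and vascular smooth muscle cells wrap capillaries and arteries and regulate their tone through actin and myosin. Myofibroblasts are matrix-producing cells that appear in injured kidney and contain alpha smooth muscle actin. Platelet-derived growth factor (PDGF) ligands act on them through receptors that are carried by perivascular cells and fibroblasts. No gene of the set is specific to a single cell type: vimentin, for example, is also made by podocytes, endothelial cells and leukocytes, and Thy1 by mouse T cells.

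Sex differed between the groups, read from Xist and 3 Y-linked genes. Both wild type mice, single mutant 2 and double mutant 3 were read as male, and the other 4 mice as female. Each comparison was therefore made in a fit without and a fit with a term for sex. The second fit takes the effect of sex from the mutants alone, which have 1 male each, because no wild type female was measured. It assumes the same effect of sex in all groups. Its estimates can lie beyond the difference of any array from the wild type mean, as for Tagln, Vim and Thy1 in double mutants. Col4a3 measured 6.82, 6.13 and 7.60 in the double mutants, 7.65, 7.67 and 6.60 in the single mutants, and 8.77 and 8.42 in wild type. Every mutant array was below both wild type arrays for Col4a3, without passing the test (adjusted p = 0.0998 in double and 0.162 in single mutants against wild type, limma, no sex term). The osteopontin gene was not analysed here.

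Promoter sequence was taken from RefSeq (build GRCm38.p6), whose table held 6 of the 10 genes: Acta2, Cnn1, Des, Vim, Pdgfra and Cspg4. The 250 bases before the transcript start are printed for the 3 that passed the test in the fit with the sex term (Acta2, Vim and Pdgfra). Those of Cnn1 are printed too, as a contractile gene whose group means barely differed without the sex term. Acta2 is on the minus strand at chr19:34255374-34255623, Vim on the plus strand at chr2:13574061-13574310, Pdgfra on the plus strand at chr5:75152001-75152250 and Cnn1 on the plus strand at chr9:22099003-22099252. For Acta2, Pdgfra and Cnn1 the start used lies within the annotated span of the gene, which has further starts. Capitals mark the motifs searched.
Acta2: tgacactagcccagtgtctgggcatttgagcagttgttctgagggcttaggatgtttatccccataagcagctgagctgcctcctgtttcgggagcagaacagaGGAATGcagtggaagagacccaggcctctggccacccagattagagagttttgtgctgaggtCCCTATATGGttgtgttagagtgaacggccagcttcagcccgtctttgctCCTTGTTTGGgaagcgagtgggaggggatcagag
Vim: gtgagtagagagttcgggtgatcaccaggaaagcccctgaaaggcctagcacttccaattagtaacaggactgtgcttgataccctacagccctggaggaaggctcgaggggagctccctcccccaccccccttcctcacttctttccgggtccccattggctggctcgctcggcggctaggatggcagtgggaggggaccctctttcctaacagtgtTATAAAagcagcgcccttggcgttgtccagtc
Pdgfra: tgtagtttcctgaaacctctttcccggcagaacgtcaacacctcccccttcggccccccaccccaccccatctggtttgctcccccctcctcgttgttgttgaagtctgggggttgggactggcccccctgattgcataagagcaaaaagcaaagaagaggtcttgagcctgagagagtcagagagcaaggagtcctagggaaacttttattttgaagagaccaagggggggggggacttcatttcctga
Cnn1: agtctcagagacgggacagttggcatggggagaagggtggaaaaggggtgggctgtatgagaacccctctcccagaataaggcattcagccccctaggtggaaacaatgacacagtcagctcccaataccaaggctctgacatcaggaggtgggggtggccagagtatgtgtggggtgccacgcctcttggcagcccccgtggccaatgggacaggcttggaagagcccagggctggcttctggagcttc
The motifs were the CArG box, the binding site of serum response factor, also with 1 letter off among its 6 A or T positions, CATTCC, the site of TEAD factors, and TATAAA, all on both strands. An exact CArG box was in none of the 6 promoters, and in 1.4% of 27025 mouse promoters of the same length. The form with 1 letter off was in Acta2, starting 84 and 34 bases before the start, and in 8.65% of all promoters. CATTCC was in Acta2 on the reverse strand, 146 bases before the start (12.6% of promoters), and TATAAA in Vim, 32 bases before it (13%). No capitals appear in Pdgfra and Cnn1, which says only that these letters are not in this window.

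Of the 4 contractile genes, Acta2 and Tagln rose in both mutants with the sex term, Myh11 was higher on every mutant array without passing the test, and Cnn1 lay below the filter. Acta2 encodes alpha smooth muscle actin, the classical mark of smooth muscle cells and myofibroblasts, and lies at chr19:34240336-34255585 (GRCm38, as for all positions). Acta2 measured 9.91, 10.04 and 9.80 in the double mutants, 9.34, 9.55 and 9.71 in the single mutants, and 8.50 and 8.65 in wild type. The 3 groups did not overlap on any array: every double mutant was above every single mutant, and every single mutant above both wild type mice. Acta2 rose in double mutants over wild type by 1.34 (SE 0.15, 2.53-fold, adjusted p = 0.0346) without the sex term, and by 1.29 (SE 0.18, adjusted p = 0.00841) with it. In single mutants Acta2 was higher than wild type by 0.95 without the sex term, which did not pass the test (adjusted p = 0.0682), and rose by 0.91 (SE 0.18, 1.87-fold, adjusted p = 0.0134) with it. In bulk tissue, more cells of a type and more RNA per cell cannot be told apart.

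Tagln encodes transgelin (SM22 alpha), an actin-binding protein of smooth muscle at chr9:45929628-45936058. It measured 7.92, 8.13 and 8.31 in the double mutants, 7.62, 8.25 and 7.48 in the single mutants, and 6.55 and 6.67 in wild type. Every mutant array was above both wild type arrays, while the mutant groups overlapped, with single mutant 2 nearly as high as double mutant 3. With the sex term, Tagln rose by 1.84 (SE 0.17, 3.58-fold, adjusted p = 0.00407) in double and by 1.50 (SE 0.17, 2.83-fold, adjusted p = 0.00584) in single mutants. Without it the differences were 1.51 (adjusted p = 0.0669) and 1.17 (adjusted p = 0.0781), neither of which passed.

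Myh11 encodes smooth muscle myosin heavy chain, the motor of differentiated smooth muscle, at chr16:14194527-14292188. It measured 7.62, 7.13 and 7.16 in the double mutants, 7.49, 7.25 and 7.35 in the single mutants, and 6.60 and 6.71 in wild type. Every mutant array exceeded both wild type arrays, but the difference did not pass the test in either fit. It was 0.65 (SE 0.18, adjusted p = 0.102) in double and 0.71 (SE 0.18, adjusted p = 0.113) in single mutants without the sex term. With the term it was 0.52 (adjusted p = 0.0779) and 0.58 (adjusted p = 0.0569).

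Cnn1 encodes calponin 1, an inhibitor of smooth muscle myosin, at chr9:22099221-22109221. It measured 5.89, 5.97 and 5.56 in the double mutants, 5.99, 5.41 and 5.99 in the single mutants, and 5.60 and 5.74 in wild type. All these values are below the filter, and the groups overlapped fully. The difference from wild type was 0.13 in both mutants without the sex term. With the term its sign turned, to -0.18 in double and -0.19 in single mutants. The male mutants, single mutant 2 and double mutant 3, were the lowest arrays of all for Cnn1.

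Of the 2 intermediate filament genes, Vim passed the test and Des did not. Vim, which encodes vimentin, the filament protein of mesenchymal and other cells, lies at chr2:13574311-13582826. It measured 10.47, 10.40 and 10.21 in the double mutants, 9.51, 10.80 and 9.60 in the single mutants, and 8.19 and 8.42 in wild type. All 6 mutant arrays were above both wild type arrays, and the highest array was single mutant 2. With the sex term Vim rose by 2.39 (SE 0.36, 5.24-fold, adjusted p = 0.0108) in double and by 2.00 (SE 0.36, 4.01-fold, adjusted p = 0.0112) in single mutants, the largest fold among the 10 genes. Without it the differences were 2.05 (adjusted p = 0.0686) and 1.66 (adjusted p = 0.0911). No double mutant array lay as far as 2.39 above the wild type mean. Among males, double mutant 3 was above wild type by 1.90 and single mutant 2 by 2.49. A second, dimmer probe set for Vim gave smaller differences, 0.59 in double and 0.37 in single mutants without the sex term, and on it single mutant 1 measured 6.11, below both wild type arrays at 6.26 and 6.16.

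Des encodes desmin, the muscle-type filament of smooth muscle, pericytes and injured podocytes, at chr1:75360292-75368579. It measured 7.44, 7.46 and 6.67 in the double mutants, 6.29, 6.70 and 6.89 in the single mutants, and 6.80 and 6.60 in wild type. Double mutants 1 and 2, both female, were the highest arrays, while double mutant 3 lay between the wild type arrays. Des did not pass the test against wild type in either fit, with differences of 0.49 (adjusted p = 0.334) in double and -0.074 (adjusted p = 0.888) in single mutants without the sex term.

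**Figure D1:**
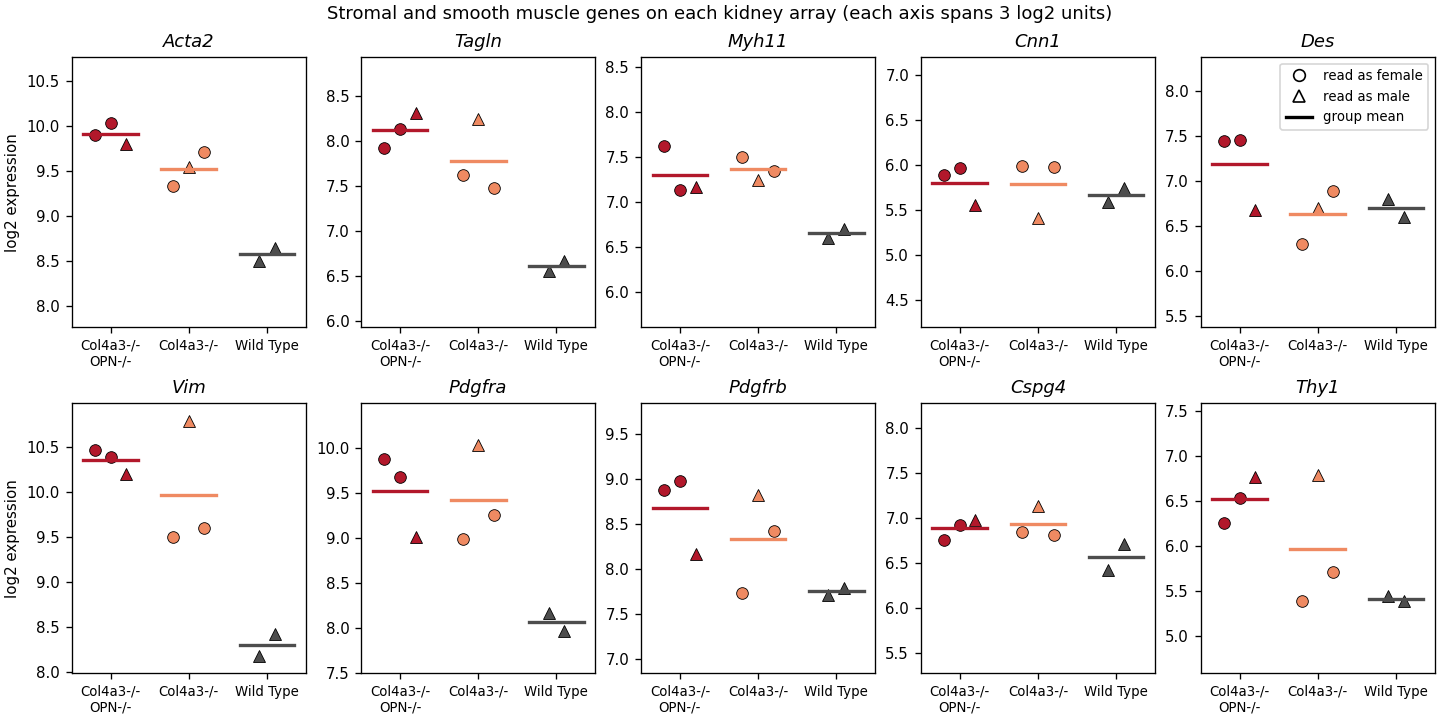
Log2 expression of the 10 genes (one panel each, vertical axis in log2 units) on every array, with double mutants left, single mutants middle and wild type right. Horizontal bars are group means, and the point shape gives the sex read from the array. For Acta2 the 3 groups are separate, while for Cnn1 and Des they overlap.

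Pdgfra, the receptor for PDGF-A and other PDGF ligands on fibroblasts, was higher on every mutant array. It lies at chr5:75151322-75198206 and measured 9.88, 9.67 and 9.01 in the double mutants, 8.99, 10.03 and 9.25 in the single mutants, and 8.17 and 7.96 in wild type. The mutant groups overlapped fully, and the highest array was single mutant 2. With the sex term Pdgfra rose by 1.51 (SE 0.41, 2.84-fold, adjusted p = 0.0359) in double and by 1.41 (SE 0.41, 2.66-fold, adjusted p = 0.0401) in single mutants. Without it the differences were 1.46 (adjusted p = 0.0821) and 1.36 (adjusted p = 0.115). Pdgfra with the sex term and no filter on signal lost its call in both mutants (adjusted p = 0.112 and 0.124). It kept the call in 3 of 8 fits with 1 array left out in each mutant, with differences between 0.95 and 2.62 in double and between 0.30 and 1.97 in single mutants.

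Pdgfrb, the receptor for PDGF-B and PDGF-D on pericytes and mesangial cells, lies on chromosome 18 (61045127 to 61085067). It measured 8.88, 8.97 and 8.16 in the double mutants, 7.74, 8.82 and 8.42 in the single mutants, and 7.71 and 7.79 in wild type. Double mutant arrays were all above wild type, whereas single mutant 1 lay between the wild type arrays. Neither difference passed the test: 0.92 (SE 0.34, adjusted p = 0.183) in double and 0.58 (SE 0.34, adjusted p = 0.325) in single mutants without the sex term, and 0.91 (adjusted p = 0.134) and 0.57 (adjusted p = 0.320) with it.

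Cspg4 encodes NG2, a pericyte surface proteoglycan that binds PDGF, at chr9:56865104-56899870. It measured 6.75, 6.92 and 6.98 in the double mutants, 6.85, 7.13 and 6.81 in the single mutants, and 6.42 and 6.71 in wild type. Every mutant array was above both wild type arrays, double mutant 1 only just. The difference did not pass the test in either fit; with the sex term it was 0.46 (adjusted p = 0.0682) in double and 0.51 (adjusted p = 0.0507) in single mutants.

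Thy1 encodes a surface glycoprotein of fibroblasts, neurons and mouse T cells, at chr9:44043384-44048579. It measured 6.26, 6.53 and 6.77 in the double mutants, 5.39, 6.79 and 5.71 in the single mutants, and 5.44 and 5.39 in wild type. Double mutant arrays were all higher than wild type, and single mutant 2 was the highest array, whereas single mutant 1 was level with wild type. Thy1 was below the filter and was not tested in the main fits. In the fit of all 22180 genes with the sex term and no filter, Thy1 passed in double mutants (1.64, adjusted p = 0.0333), where 2.08% of these genes passed and were higher, and not in single mutants (1.09, adjusted p = 0.0691). Without the sex term it passed in neither (adjusted p = 0.286 and 0.572). The mean of 6 T cell markers, all below the filter too, was between 5.26 and 6.01 in double mutants, 5.10 and 5.45 in single mutants, and 5.05 and 5.06 in wild type. It was highest in double mutant 1, which had the lowest Thy1 of the double mutants. Cd3e measured 7.32, 6.23 and 5.78 in the double mutants, 5.57, 5.99 and 5.63 in the single mutants, and 5.52 and 5.30 in wild type. In the same order Cd3g measured 7.04, 6.16 and 5.73, then 5.25, 5.70 and 5.71, and 5.18 and 5.03. Cd4 measured 6.37, 5.91 and 5.18, then 5.01, 5.73 and 4.98, and 4.73 and 4.99. On all 8 arrays Cd3d lay between 4.85 and 5.09, Cd2 between 4.67 and 5.04 and Cd8a between 5.04 and 5.42. Their part in the Thy1 values was not tested.

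Over the 10 genes, the order of the group means was double above single above wild type for 7. Myh11 and Cspg4 were highest in single mutants, and Des was lowest in them. In double mutants 8 of 10 genes had every array above both wild type arrays, the exceptions being Cnn1 and Des (7 of the 8 genes above the filter, against 17.4% of all genes above it and 15% of all named genes). In single mutants 6 of 10 did so, namely Acta2, Tagln, Myh11, Vim, Pdgfra and Cspg4 (6 of 8 above the filter, against 19.3%, and 15.5% of all named genes). All 6 mutant arrays lay above wild type for the same 6 genes (6 of 8, against 13.1%, and 9.24% of all named genes).

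In the fit without the sex term, 1 of 8 tested genes, Acta2, passed in double mutants against wild type, where 0.056% of all tested genes passed and were higher. None passed in single mutants (0.014%), where 5 of 8 had an unadjusted p under 0.05, as did 23.2% of all tested genes. In the fit with the sex term, Acta2, Tagln, Vim and Pdgfra passed and were higher in both mutants, 4 of 8 against 6.4% of all tested genes for double and 7.31% for single mutants. None of the 8 fell, against 17.8% and 19.9%. The median difference from wild type over the 10 genes was 1.01 in double mutants (all tested genes -0.077) and 0.64 in single mutants (-0.074) without the term. With it the medians were 1.10 (-0.15) and 0.74 (-0.15). Both mutants were set against the same 2 wild type arrays, so these comparisons are not independent of each other.

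Calls in the fit with the sex term depended on a few arrays. That fit uses 1 effect of sex for all groups. On these arrays male minus female went different ways in the 2 mutants for part of the set. The test of this difference passed for no gene. Male minus female was above 0 for 8 of the 10 genes in single mutants and for 3 in double mutants. It was 0.91 in single and -0.76 in double mutants for Pdgfra, and 1.24 and -0.23 for Vim, with 1 male in each. Without single mutant 2, the only male of its group, none of the 8 genes passed in single mutants, Pdgfra being at 0.30 and Vim at 1.02 above wild type there. Over all genes 0 were called without that array (1825 had an unadjusted p under 0.05), and 522 were called higher and 1424 lower with it. Without wild type 2, which leaves 1 wild type array, fewer of the 8 genes and fewer of all tested genes passed in each mutant. Acta2 without the sex term lost its call when any array but single mutant 2 or double mutant 3 was left out. Cyclic loess scaling, gave 719 higher and 851 lower calls for double mutants and 821 and 1031 for single mutants, against 457 and 1271 and 522 and 1424 on the deposited scale. It moved the median of all tested genes in the fit with the sex term to -0.043 in double and -0.035 in single mutants. The 10 genes' median relative to all tested genes was 1.30 and 0.94 with cyclic loess, against 1.25 and 0.89 on the deposited scale, and the 10 genes kept the signs of their differences from wild type under the 3 scalings tried (quantile, median centring and cyclic loess).

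**Figure D2:**
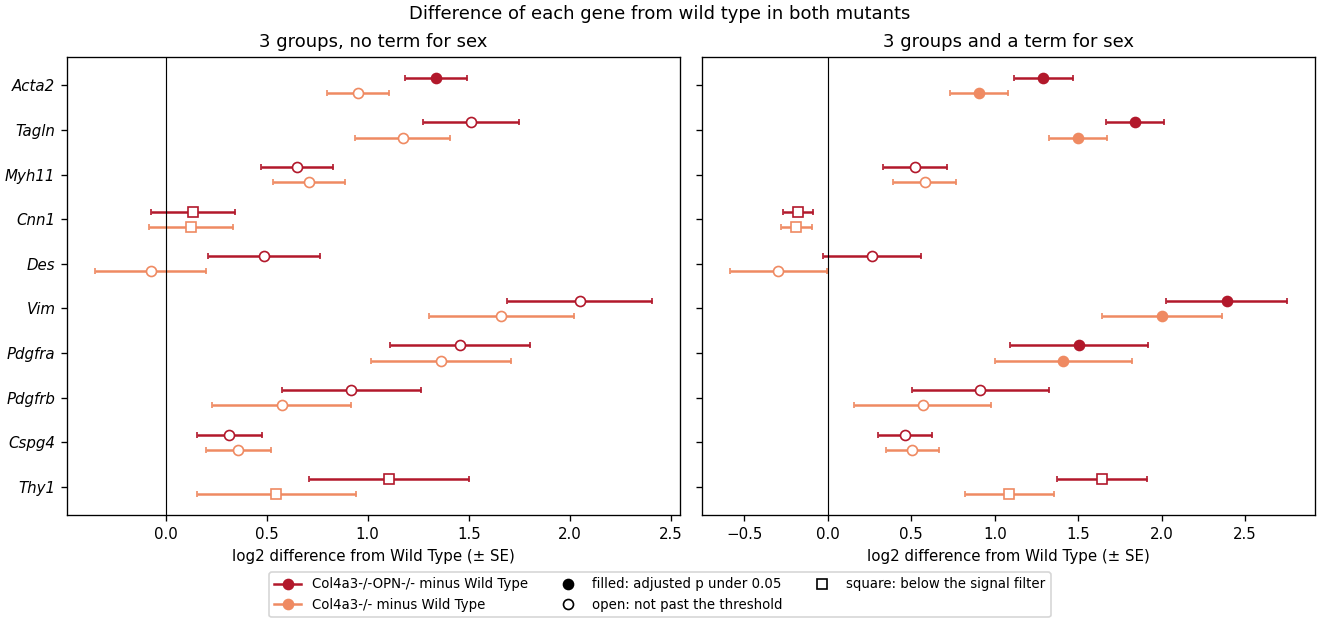
Differences from wild type (horizontal axis, log2, point with SE bar) for the 10 genes in double mutants and single mutants, left without and right with a term for sex. Filled points have an adjusted p under 0.05, and squares are genes below the filter. Acta2 alone is filled on the left, while Acta2, Tagln, Vim and Pdgfra are filled for both mutants on the right.

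No gene of the set passed the test between the mutants. In the fit without the sex term 0 of 8 passed, where 0% of all tested genes passed, with 1 unadjusted p under 0.05 (Acta2), and with the term 0 passed and 3 had one (Acta2, Tagln and Des). Over all 7145 genes 0 passed in either fit, and 104 without and 273 with the term had an unadjusted p under 0.05. Acta2 differed by 0.39 (95% interval 0.068 to 0.70, adjusted p = 1), and it was the only one of the 10 genes with every double mutant array above every single mutant array, which 2.02% of all tested genes and 3.32% of all named genes also showed. The other intervals in this fit all included 0: 0.34 for Tagln (-0.15 to 0.83), 0.39 for Vim (-0.35 to 1.13), 0.56 for Des (-0.0085 to 1.13) and 0.34 for Pdgfrb (-0.37 to 1.05). Pdgfra differed by 0.094 (-0.62 to 0.81), Myh11 by -0.058 (-0.42 to 0.31) and Cspg4 by -0.044 (-0.38 to 0.29). For Vim, Des and Pdgfrb the intervals thus reach past 1 log2 unit. The median over the 10 genes was 0.34, against 0.0013 over all tested genes.

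The difference between the mutants went different ways in the 2 sexes for part of the set. Among females (2 arrays per mutant) double minus single was 0.88 for Vim, 0.65 for Pdgfra, 0.85 for Pdgfrb, 0.86 for Des and 0.84 for Thy1. In males (1 array per mutant) it was -0.59 for Vim, -1.02 for Pdgfra, -0.66 for Pdgfrb, -0.029 for Des and -0.022 for Thy1. Acta2 was higher in double mutants in both, by 0.45 in females and 0.26 in males. The test of the difference between the sexes passed for no gene of the 7145, of which 913 had an unadjusted p under 0.05. The closest of the set were Pdgfra (1.67, SE 0.27, adjusted p = 0.0591) and Vim (1.47, SE 0.24, adjusted p = 0.0591). The medians over the 10 genes were 0.56 in females and -0.057 in males. The male values rest on 1 mouse in each group, and a difference of sex and a difference of those 2 mice cannot be told apart.

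**Figure D3:**
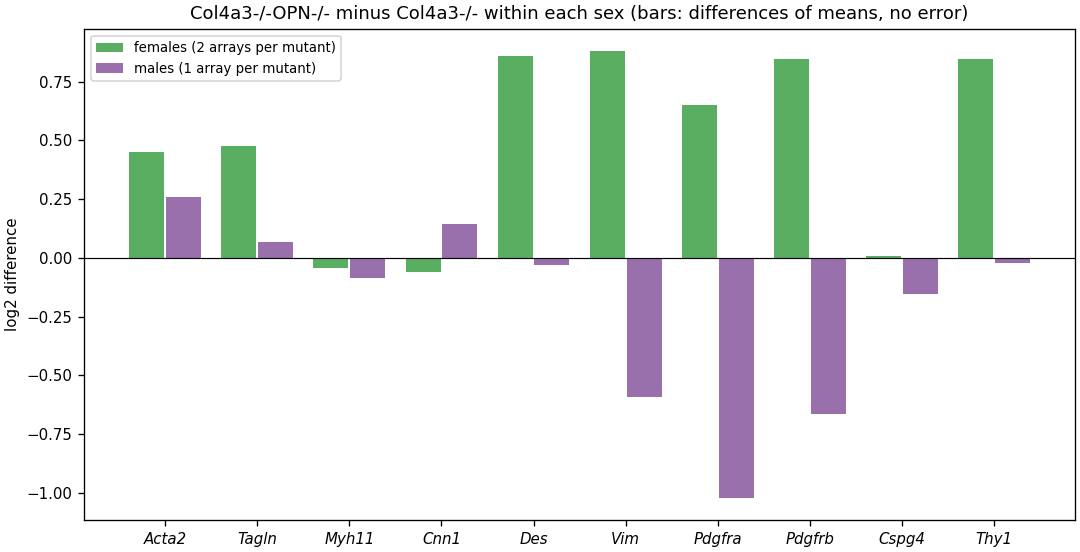
Double mutant minus single mutant (vertical axis, log2 difference) for the 10 genes in females (2 arrays per mutant) and males (1 array per mutant), with no error bars. Vim, Pdgfra and Pdgfrb are above 0 in females and below 0 in males.

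Among males alone the mutants could be set against wild type of the same sex. In the fit with the sexes of each mutant as separate groups, single mutant 2 was above wild type by 2.49 for Vim and by 1.97 for Pdgfra, and double mutant 3 by 1.90 and 0.95. Acta2 was higher by 1.23 in double mutant 3 and by 0.97 in single mutant 2, and Tagln by 1.70 and 1.64. Of the 10 genes, 4 had their highest value in single mutant 2, and 3 in double mutant 2. Wild type 1 had the lowest value for 6.

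Genes with the most similar profiles over the 8 arrays were found for the 8 genes above the filter, as the root mean square difference of log2 values, each gene centred on its mean, among 7145 genes. The closest pair within the set was Acta2 and Tagln, at 0.28. Outside the set, Acta2 was nearest to Cd24a (0.17), Tagln to Tpm4, a tropomyosin (0.11), and Vim to Sulf1, an enzyme that edits heparan sulfate (0.16). Pdgfra was nearest to Serping1, the complement C1 inhibitor (0.08), and Pdgfrb to Nid1, the basement membrane protein nidogen (0.12). Myh11 was nearest to Tmod3 (0.11), Des to Atp1b2 (0.12) and Cspg4 to Cttn (0.06). These distances describe the arrays only, and genes with small changes have small distances.

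Genes of the same pathways were read from lists. Of all tested genes, 6.4% with the sex term were called higher and 17.8% lower in double mutants, and 7.31% and 19.9% in single mutants. Of 4 PDGF ligands, 3 were tested, and Pdgfb passed with the sex term in both mutants. Pdgfb, the main ligand of the receptor Pdgfrb, measured 6.88, 7.17 and 7.73 in the double mutants, 6.39, 7.67 and 7.04 in the single mutants, and 6.31 and 6.37 in wild type. It rose by 1.47 (adjusted p = 0.0112) in double and by 1.25 (adjusted p = 0.0127) in single mutants, the highest arrays again being male. Pdgfc differed by -0.58 and -0.47 and Pdgfd by 0.56 and 0.49, none of which passed.

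Other genes of the contractile apparatus rose in part. With the sex term 5 of 8 tested rose in double mutants and 4 in single mutants. Flna, filamin A, which cross-links actin, rose by 2.03 (adjusted p = 0.00407) in double and 1.82 (adjusted p = 0.00572) in single mutants. Actn1, alpha-actinin, rose by 2.02 (adjusted p = 0.0112) and 1.80 (adjusted p = 0.0112), Cald1, caldesmon, by 0.99 and 0.79, and Mylk, the myosin light chain kinase, by 0.72 and 0.70. Cnn2 rose in double mutants by 0.94 (adjusted p = 0.0434), and was higher in single mutants by 0.85 (adjusted p = 0.0552). Of the other genes of this list, Myl9 (0.21 and 0.20), Smtn (0.30 and 0.45) and Tpm1 (0.92 and 0.58) did not pass, and Actg2, Lmod1, Synpo2, Tpm2 and Pln were below the filter.

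Of the pericyte and mural genes, with the sex term 2 of 5 tested rose and 1 fell in double mutants, and 1 fell in single mutants. A fall in 1 of 5 is close to the share of all tested genes called lower, 17.8% in double and 19.9% in single mutants. Mcam, a mural and endothelial adhesion molecule, rose by 0.70 (adjusted p = 0.0439) and Gucy1b1, a subunit of the nitric oxide receptor, by 0.59 (adjusted p = 0.033) in double mutants. Abcc9, a subunit of the vascular potassium channel, fell by 0.61 (adjusted p = 0.048) in double and 0.70 (adjusted p = 0.0305) in single mutants. Rgs5, a pericyte marker, measured 10.20, 9.59 and 8.33 in the double mutants, 8.86, 8.82 and 8.84 in the single mutants, and 8.17 and 8.47 in wild type, and did not pass (0.52, adjusted p = 0.371 in double mutants).

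Fibroblast and activated stroma genes rose in part, with 3 of 5 tested passing with the sex term in each mutant. Tnc, tenascin C of activated stroma, rose by 3.51 (adjusted p = 0.00348) in double and 3.17 (adjusted p = 0.00531) in single mutants. Dpt, dermatopontin, rose by 2.56 and 2.17 (adjusted p = 0.0279 and 0.0411), and Cdh11, an adhesion molecule of fibroblasts, by 1.69 and 1.72 (adjusted p = 0.0337 and 0.0297). Dcn (0.84 and 0.58) and Nt5e (-0.49 and -0.59) did not pass, and Postn, Lum, Fap, Pi16 and S100a4 were below the filter.

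Of the markers of other cell types, the mean of those of macrophages was higher in both mutants, as was most of the set. The mean of those of the proximal tubule was lower. The mean of 8 macrophage markers was between 8.20 and 8.52 in double mutants, 7.40 and 8.91 in single mutants, and 6.42 and 6.61 in wild type. With the sex term 5 of 6 tested rose in both mutants (6.4% and 7.31% of all tested genes), Lyz2 by 4.12 and 3.68. Csf1r did not pass. It measured 8.23, 8.41 and 8.09 in the double mutants, 8.18, 8.71 and 7.83 in the single mutants, and 8.05 and 8.31 in wild type. The mean of 6 proximal tubule markers was between 10.57 and 10.93 in double mutants, 9.77 and 11.27 in single mutants, and 11.42 and 11.49 in wild type. With the sex term 2 of 6 fell in double mutants (17.8% of all tested genes) and 3 of 6 in single mutants (19.9%). Slc34a1 and Slc22a6 fell in both, and Cubn in single mutants only. Cubn measured 11.13, 9.17 and 11.28 in the single mutants and 11.02 and 10.85 in wild type. Only single mutant 2, the male, was thus below wild type for Cubn. Lrp2 was likewise above wild type in single mutants 1 and 3 (12.04 and 12.10, against 11.88 and 11.74). Single mutant 2, which was the highest array for Vim, Pdgfra, Thy1 and Cspg4, was also the highest for macrophage markers and the lowest for tubule markers. With the sex term, endothelial markers had 0 rising and 1 falling of 8 tested in each mutant (Kdr, -0.92 and -0.75). That is not above the share of all tested genes called lower, 17.8% in double and 19.9% in single mutants. Without the term 7 of the 8 were above wild type in each mutant, with medians of 0.20 in double and 0.26 in single mutants. Podocyte markers had 0 of 2 and the mesangial marker Itga8 0 of 1 passing with the sex term. The mean of 6 skeletal muscle markers lay between 4.98 and 5.12 on every array. None of the skeletal muscle, fat and T cell markers was above the filter. The mean of 4 fat markers was between 5.25 and 5.88 in double mutants, 5.42 and 5.48 in single mutants, and 5.04 and 5.16 in wild type. The part of these cell types in the differences of the 10 genes was not tested. None of the genes of these lists passed between the mutants, and none passed against wild type without the sex term.

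**Figure D4:**
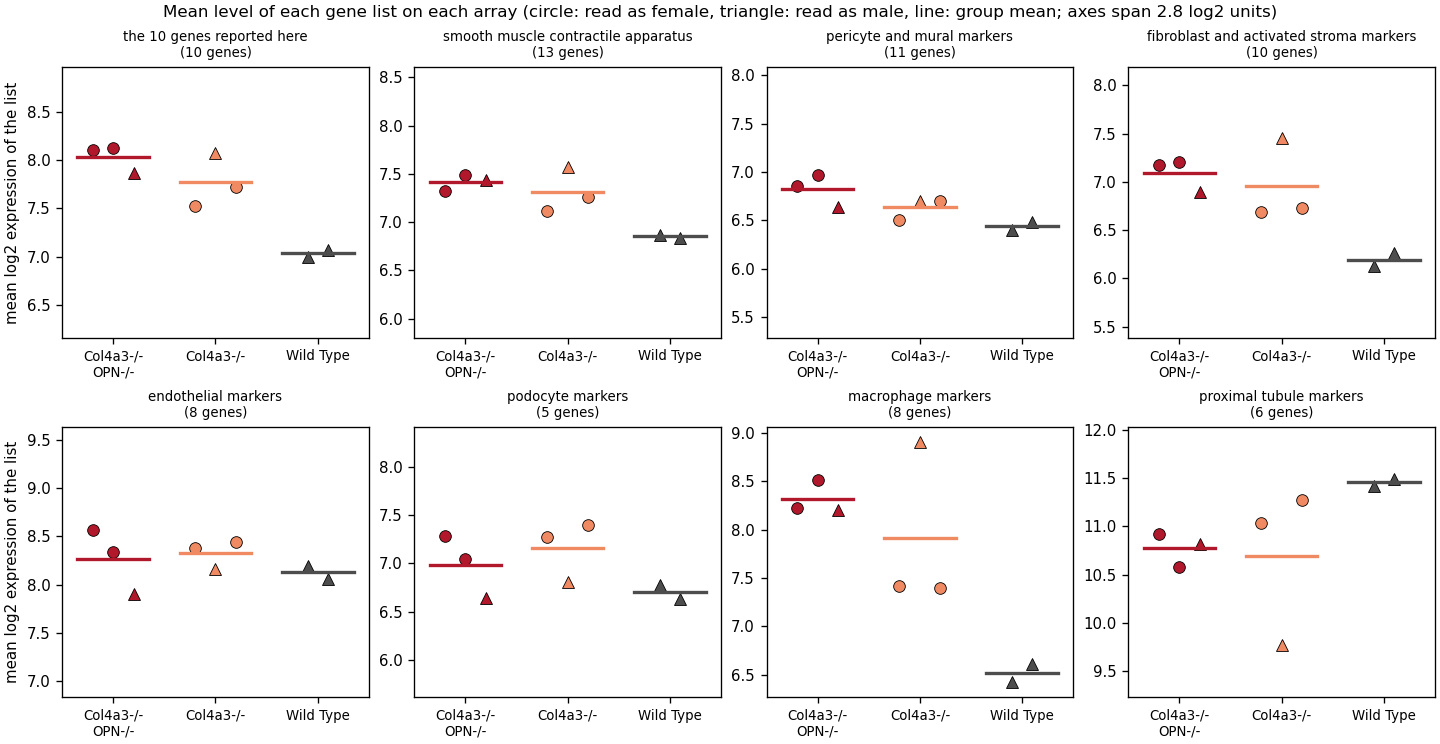
Mean log2 value of 8 gene lists (one panel each, vertical axis in log2 units) on every array, with double mutants left, single mutants middle and wild type right. Macrophage markers are lowest in wild type, at 6.42 and 6.61, and highest in single mutant 2, at 8.91.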

How the data were processed

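Total RNA of 8 kidneys was hybridized to 1 array each. The authors deposited 1 log2 value per probe set and array; the log2 unit was read from their range, 4.20 to 13.43. How the authors normalized and summarized the probes is not stated in any source used here, and nothing was rescaled. Array medians lay between 5.18 and 5.25, and precision is limited by the number of arrays. Per the labels, a kit for small RNAs was used, while the probe sets are those of a gene array, 23521 of 33793 naming 1 gene.

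For the 1082 genes with several probe sets the brightest was kept. A gene was tested where its mean signal exceeded the 75th percentile over probe sets (6.64), which left 7145. The 3 groups entered a single limma model (version 3.58.1, R 4.3.3, lmFit and eBayes), without and with a term for sex. Two-sided p values received a Benjamini-Hochberg adjustment across these genes, with a threshold of 0.05. The fit was also run on simulated data with equal spread for all genes and no effect of sex. Such data cannot check the calls made with the sex term on these arrays. Nothing in the labels pairs mice of different groups, and arrays of the same number correlated between -0.58 and 0.26 in their deviations from group means. Named genes are the 10 genes, list genes that pass in either fit or are the 4 largest of their list, the 3 genes of most similar profile and Col4a3, of which some are printed. The genes and lists were chosen with earlier results of these data known. Other settings were filters, scalings, variance models, array weights, averaged probe sets, only the 2 groups compared, a replicate block, leaving out each array, and the sexes apart. Figures used matplotlib 3.10.9 (Python 3.11.15). The osteopontin gene is not reported here.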

Additional observations from a re-analysis of the deposited data

How the results depend on the processing

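Calls against wild type depended on the setting. Without the sex term, for double mutants the count of the 8 genes passing was 1 as reported, 0 with median centring, 6 with array weights and 4 with only the 2 groups compared. It was 0 to 4 when each mutant array was left out in turn, the 4 being without single mutant 2. Of all 7145 tested genes, 193 were called higher in double mutants with only the 2 groups compared and 292 without single mutant 2. For single mutants the count of the 8 genes was 0 as reported, 5 with array weights and 0 with each mutant array left out. Fits of males alone set 1 mutant mouse against 2 wild type mice, whose spread, moderated across genes, is the only one in the test. Their counts are not given. With the sex term, the count was 4 in each mutant as reported, and leaving out each array gave 1 to 5 in double and 0 to 5 in single mutants, while the other settings gave 4 to 5 and 3 to 6, the 6 with cyclic loess; the median of the 10 genes ranged from 0.73 to 1.67 and from 0.45 to 1.02, and from 0.93 to 1.08 and 0.55 to 0.85 without the term. It was 0.73 in double and 1.02 in single mutants among males alone and, with the sex term, with only the 2 groups compared. Between the mutants the median was -0.057 in males alone and 0.56 in females, ranged from 0.13 to 0.48 without and 0.13 to 0.56 with the sex term when each array was left out, and no setting gave a call. Among the 8 tested genes, signs turned for Des against wild type. It was -0.03 in double mutants in males alone, and -0.03 with the sex term and only the 2 groups. Between the mutants signs turned in males alone for Des (-0.029), Pdgfra (-1.02), Pdgfrb (-0.66) and Vim (-0.59), and in females for Cspg4 (0.0099). Leaving out single arrays turned Des (-0.20 to 0.093 in single, -0.03 to 0.86 in double mutants with the sex term). It also turned Pdgfrb in single mutants with the sex term (-0.44 to 1.07). Between the mutants it turned Cspg4 (-0.10 to 0.056 without and -0.11 to 0.0099 with the sex term), Myh11 (-0.21 to 0.028 and -0.20 to 0.077) and Pdgfra (-0.12 to 0.40 and -0.14 to 0.65). Of the 2 genes below the filter, Cnn1 was below wild type among males, by -0.11 in double and -0.26 in single mutants. Between the mutants Cnn1 was -0.060 in females and Thy1 -0.022 in males. With arrays left out, Cnn1 between the mutants ranged from -0.18 to 0.13 without and -0.060 to 0.049 with the sex term. For the difference between the sexes, Myh11 gave -0.083 with quantile normalization, -0.052 with cyclic loess and -0.20 to 0.28 with arrays left out, and it could not be fitted without the male of either mutant. The numbers do not pair the mice, and a replicate block gave 0 calls in double mutants without and 4 with the sex term, the same 4 in number as without the block for both mutants; for the difference between the sexes it gave -0.24 for Cspg4 and -0.046 for Tagln. Over all genes without the sex term, array weights gave 600 higher and 672 lower calls in double mutants (4 and 2 as reported) and 289 and 518 in single mutants (1 and 1). For the difference between the sexes 0 genes were called as reported, with 30 higher at a filter on the 50th percentile, 15 with an intensity trend and 16 with median centring, and 12 higher and 1 lower with quantile normalization, none of them among the 10 genes. The cause of these shifts was not tested.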

Other observations

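Regulators of mural and stromal cells gave no call. Of 10 on the list, 4 were above the filter (Srf, Mrtfa, Mrtfb and Tcf21), and none passed against wild type in either fit (with the sex term 2 of 4 in double and 1 of 4 in single mutants had an unadjusted p under 0.05, as did 41.7% and 43.3% of all tested genes). Mrtfa, a coactivator of serum response factor that senses actin, measured 7.01, 7.33 and 6.94 in the double mutants, 6.64, 7.54 and 6.93 in the single mutants, and 6.40 and 6.44 in wild type, and every mutant array was above wild type (0.85, adjusted p = 0.0619 in double mutants with the sex term). Srf itself differed by 0.12 and 0.14. Myocd, the smooth muscle partner of serum response factor, was below the filter.

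Partners of the filaments were higher in part. Nes, nestin, which assembles with vimentin, measured 6.92, 6.90 and 6.83 in the double mutants, 6.78, 7.47 and 7.13 in the single mutants, and 6.03 and 5.96 in wild type. It rose with the sex term by 1.03 (adjusted p = 0.0158) in double and by 1.28 (adjusted p = 0.00971) in single mutants. Actb, cytoplasmic beta-actin, rose by 0.79 (adjusted p = 0.0407) in double mutants and was 0.59 higher in single mutants (adjusted p = 0.0877). Actg1 differed by 0.55 and 0.27 and did not pass.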
